A study of Solanum lycopersicum x Solanum pennellii and Solanum lycopersicum with 21 samples.

Results

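Anthers of the tomato introgression line IL-1_1_3 were set against anthers of a second line, IL-4_2. The 3 arrays titled IL-1_1_3 and the 4 arrays titled IL-4_2 were taken by title, 7 of the 21 arrays in the series. An introgression line is a tomato plant in which a segment of a wild relative's chromosome, here from Solanum pennellii, replaces the cultivated one. Both lines carry such a segment in the background of the cultivated tomato M82, and the 6 arrays of M82, the parental control, show for each gene which of the lines departs from it. The labels give the lines as Solanum lycopersicum x Solanum pennellii and the series text calls them hybrids, without saying how many copies of the segment a plant had. All plants were grown in a greenhouse and treated alike, and anthers were taken the day before the flowers opened. Expression was measured on Affymetrix arrays, which read each gene with a set of short probes (a probe set), and all values below are log2 expression values, on which a difference of 1 is a 2-fold difference. A difference is called when its adjusted p in limma (Benjamini-Hochberg over all probe sets tested) is at most 0.05, and a line departs from M82 where its own comparison with M82 is called.

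An anther close to opening is a wall of a few cell layers around nearly mature pollen, whose transcripts for germination and tube growth are already stored. The feeding layer around the young pollen, the tapetum, has by then broken down. Between lines that carry different segments of the same donor, a transcript can differ where the segment holds another form of the gene itself, or where the segment holds something that acts on a gene elsewhere. The arrays cannot separate these cases. Their probes were designed on cultivated tomato, so that less transcript and weaker binding of a Solanum pennellii transcript to the probes cannot be told apart.

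Medians of the arrays of both lines and M82 lay between 9.49 and 9.54. Across probe sets, which are not independent, arrays correlated at 0.990 to 0.993 within IL-1_1_3, 0.989 to 0.998 within IL-4_2 and 0.970 to 0.996 within M82, and at 0.981 to 0.990 between the lines. Array 3 of IL-4_2, array 3 of M82 and array 2 of a further line, IL-7_2, are the 3 arrays said below to stand apart. Their mean correlations with their own groups, 0.989, 0.979 and 0.941, were the lowest there. The gap was small in IL-4_2, where the other arrays were at 0.993 to 0.994. Array 2 of IL-8_1_1, also lowest in its group at 0.985, was not put with them. Array 2 of IL-1_1_3 carried high pollen values like array 3 of IL-4_2. The pollen genes Shy, PRK1 and PRK2, the last 2 coding for pollen receptor kinases, were among the brightest probe sets in M82, at percentiles 99.7, 90.7 and 92.3. Another receptor kinase of the pollen list, PRK3, was at percentile 26.3, and the pistil gene Stig1 was near the bottom at percentile 4.28. The mean of the 4 pollen markers found (of 8 listed) ran over 11.38 to 12.26 in IL-1_1_3, 11.37 to 12.33 in IL-4_2 and 10.95 to 12.14 in M82, so the groups overlapped. The mean of 5 green tissue markers ran over 9.51 to 10.46 in IL-1_1_3, 10.30 to 10.52 in IL-4_2 and 10.14 to 11.05 in M82, with all 5 lower in IL-1_1_3 than in IL-4_2 and none called. In whole anthers, fewer cells of a type and less RNA per cell cannot be told apart, and the part of the pollen and green tissue levels in the differences below was not tested.

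Between the lines, 169 of 10101 probe sets were called, 1.67% of those tested. Of these, 95 were higher in IL-1_1_3 than in IL-4_2 (0.941%) and 74 were lower (0.733%). The arrays of the lines did not overlap in any of the 169, which also held for 12.2% of all probe sets tested. A difference of 2-fold or more was found in 62 of the higher and 35 of the lower probe sets, and one of 16-fold or more in 8 of the higher and 4 of the lower. The median size was 1.21 among the higher and 0.92 among the lower, while the median difference of all probe sets tested was -0.01. Only 14 of the 169 have a gene symbol in the annotation used, 12 of them informative, and 155 are known by probe set ID alone.

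For most called probe sets, exactly 1 of the lines passed against M82. IL-1_1_3 alone departed from M82 in 55 and IL-4_2 alone in 84, together 82.2% of the 169. Of all probe sets tested, 1.97% were called in IL-1_1_3 against M82 and 1.83% in IL-4_2 against M82. The difference between the lines is the difference of these 2 comparisons. A high share of departures is therefore built into the choice of probe sets called between the lines. Among the probe sets called between the lines, the departing line was mostly below M82. Over all probe sets called against M82 the split was near even, with 95 higher and 104 lower in IL-1_1_3. In IL-4_2 it was 89 higher and 96 lower. That split moved with the settings, in both directions. With the replicate number as a block, 8 were higher and 24 lower in IL-1_1_3, and 29 higher and 63 lower in IL-4_2. In the fit of the lines and M82, 330 were higher and 250 lower in IL-1_1_3. With array weights, 1213 were higher and 650 lower in IL-4_2. IL-1_1_3 fell in 39 of its 55 probe sets and rose in 16, and IL-4_2 fell in 65 of its 84 and rose in 19. Where IL-1_1_3 fell its median change was -1.12 while that of IL-4_2 was 0.06, and where IL-4_2 fell the median change was 0.08 in IL-1_1_3 and -1.24 in IL-4_2. A fall of 2-fold or more below M82 was seen in 24 probe sets in IL-1_1_3, with median levels of 7.23 in the line and 9.07 in M82. In IL-4_2 it was seen in 42, with median levels of 7.19 in the line and 10.21 in M82.

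**Figure D1:**
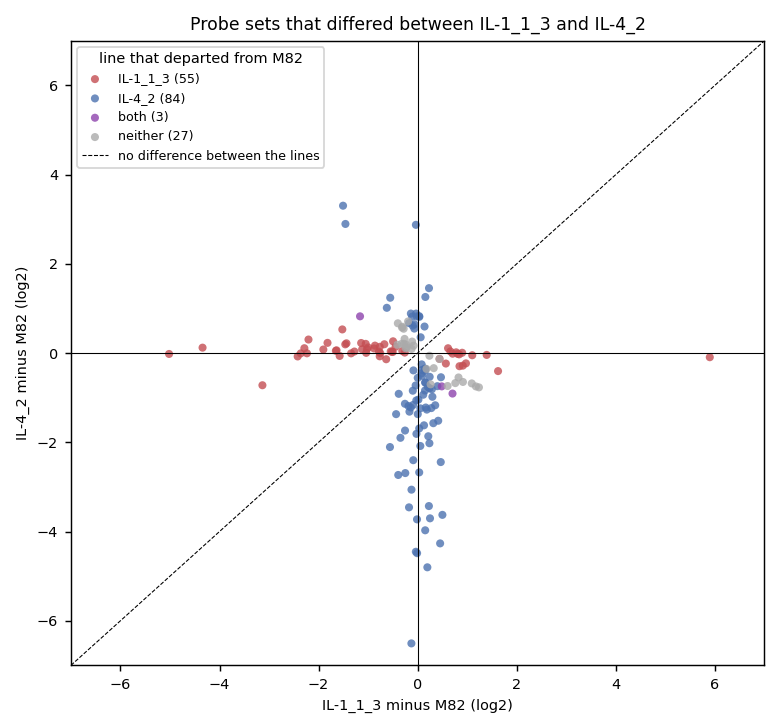
Log2 change of each line against M82 for the probe sets called between the lines, with 1 point per probe set and colours for the line that departs from M82. Points of IL-1_1_3 alone (55) and of IL-4_2 alone (84) lie mostly along separate axes, which the rule for the colours largely fixes. Most of these points lie on the side below M82.

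Both lines departed from M82, in opposite directions, in 3 probe sets, all without a symbol. Les.3034.1.S1_at averaged 11.14 in IL-1_1_3, 9.53 in IL-4_2 and 10.44 in M82. Les.5885.1.A1_at averaged 12.71 in IL-1_1_3, 11.47 in IL-4_2 and 12.22 in M82, though other probe sets of its sequence cluster, given below, did not depart in both lines. LesAffx.39235.1.S1_at ran the other way, with 9.70 in IL-1_1_3, 11.69 in IL-4_2 and 10.87 in M82. In each of the 3, M82 lay between the lines. In 27 called probe sets neither line departed, and in all 27 the lines lay on opposite sides of the M82 mean, with a median difference between them of 0.66 and a largest of 2.01. That placing is largely fixed by the choice, since these lines differ while neither passes against M82. How many probe sets fall to IL-1_1_3 alone depends on single arrays. It was 32 without array 2 of IL-1_1_3, and 33 and 36 without arrays 1 and 3, against 76 to 83 for IL-4_2 alone over the 13 arrays left out in turn. The members changed more than these totals. Without each of the 13 arrays in turn, 64 of the 84 stayed with IL-4_2 alone and 28 of the 55 with IL-1_1_3 alone. Without the 3 arrays that stand apart, 244 probe sets were called between the lines, 119 of them departing in IL-1_1_3 alone and 75 in IL-4_2 alone.

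The shikimate pathway, which makes chorismate, the precursor of the aromatic amino acids and of many phenolic compounds, held 2 called genes, with opposite signs. SK codes for shikimate kinase, and CS2 for a chorismate synthase, the last enzyme of the pathway, and for both it was IL-4_2 that departed from M82. SK read 11.40, 11.43 and 11.54 in IL-1_1_3, and 10.39, 10.37, 10.34 and 10.34 in IL-4_2, with a lowest, median and highest value of 10.98, 11.19 and 11.32 in M82. All 4 arrays of IL-4_2 were below every array of IL-1_1_3 and of M82. The difference between the lines was 1.098 ± 0.14 (SE), 2.14-fold, at an adjusted p of 6.85e-05. IL-1_1_3 lay 0.29 above M82, which did not pass (0.24), though each of its arrays was above every M82 array. IL-1_1_3 did pass against M82 for SK with array weights and without the arrays that stand apart (adjusted p down to 0.0148). IL-4_2 fell by 0.81 against M82 (adjusted p 0.000445), so that in those runs the lines departed to opposite sides. CS2 read 9.60, 10.03 and 9.96 in IL-1_1_3, and 10.97, 11.02, 11.04 and 10.83 in IL-4_2, with 9.47, 9.70 and 9.97 as lowest, median and highest value in M82. Here the arrays of IL-4_2 were above all arrays of IL-1_1_3 and M82, and those of IL-1_1_3 overlapped with M82. The difference was -1.101 ± 0.15, 2.15-fold, at an adjusted p of 6.85e-05, with IL-1_1_3 at 0.16 (0.502) and IL-4_2 up by 1.26 (1.59e-06) against M82. In the same pathway, CS1, the second chorismate synthase, differed by 0.17 ± 0.20 (adjusted p 0.966), and DHQS, dehydroquinate synthase, by 0.05 ± 0.20 (0.993). The calls of SK and CS2 between the lines, and those of IL-4_2 against M82, held in every alternative run.

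A further 2 genes called between the lines departed in IL-4_2 alone, both lower there than in M82. NITF read 9.47, 9.76 and 9.59 in IL-1_1_3, and 8.48, 8.79, 8.58 and 8.71 in IL-4_2, with 9.14, 9.39 and 9.74 as lowest, median and highest value in M82. Every array of IL-4_2 lay below those of IL-1_1_3 and M82, and IL-1_1_3 lay within the M82 range but for its highest array, which was just above it. The difference was 0.96 ± 0.15 (adjusted p 0.000656), with IL-1_1_3 at 0.20 (0.404) and IL-4_2 at -0.76 (0.00181) against M82. The gene listed as ide differed by less, with 11.15, 11.15 and 11.08 in IL-1_1_3, and 10.79, 10.81, 10.73 and 10.97 in IL-4_2, against 11.14, 11.21 and 11.27 as lowest, median and highest value in M82. IL-4_2 again lay below all arrays of IL-1_1_3 and M82. The difference was 0.30 ± 0.06 (0.00876), with IL-1_1_3 at -0.09 (0.389) and IL-4_2 at -0.39 (9.96e-05) against M82. The departure of ide in IL-4_2 held in all alternatives, while its call between the lines was lost without array 1 or array 2 of IL-1_1_3 (adjusted p 0.0568 and 0.0572).

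The clearest departure of IL-1_1_3 among genes with a symbol was that of SDH. SDH read 10.72, 10.67 and 10.71 in IL-1_1_3, and 12.07, 12.01, 11.93 and 12.14 in IL-4_2, with 11.90, 12.04 and 12.14 as lowest, median and highest value in M82. The 3 arrays of IL-1_1_3 were more than 1 unit below every other array of the lines and M82, while IL-4_2 lay within the M82 range but for array 4, which reached its top. The difference was -1.34 ± 0.09, 2.53-fold, at an adjusted p of 3.17e-09, IL-1_1_3 stood at -1.34 against M82 (1.86e-09) and IL-4_2 at -0.01 (0.974). The calls of SDH between the lines and in IL-1_1_3 against M82 held in every alternative.

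EIL2, a transcription factor of the EIN3 family that passes on the ethylene signal in the nucleus, was also lower in IL-1_1_3. It read 10.79, 10.70 and 10.77 in IL-1_1_3, and 11.70, 11.81, 11.99 and 11.63 in IL-4_2, with 11.31, 11.61 and 11.94 as lowest, median and highest value in M82. The arrays of IL-1_1_3 lay below all of IL-4_2 and M82, and IL-4_2 overlapped with M82. The difference was -1.03 ± 0.21, 2.04-fold, at an adjusted p of 0.00868, with IL-1_1_3 at -0.86 against M82 (0.0292) and IL-4_2 at 0.17 (0.703). Without array 2 of IL-1_1_3 the call between the lines was lost (0.053), and also with array 3 of IL-4_2 left out beside it (0.155). The departure from M82 was lost in 7 of 22 alternatives, with adjusted p up to 0.182. Among these were the fits without each of the 3 IL-1_1_3 arrays (0.0861, 0.165 and 0.0873 without arrays 1, 2 and 3) and without M82 array 1 (0.055) or 4 (0.0519). The related genes EIL1, EIL3 and EIL4 differed between the lines by 0.17 ± 0.13 (adjusted p 0.876), 0.25 ± 0.20 (0.899) and 0.26 ± 0.18 (0.837).

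WRKYIId-4, a member of group IId of the WRKY transcription factors, was higher in IL-1_1_3. It read 7.92, 7.57 and 7.86 in IL-1_1_3, and 6.43, 6.32, 6.56 and 7.001 in IL-4_2, with 6.50, 6.82 and 7.24 as lowest, median and highest value in M82. IL-1_1_3 lay above every array of IL-4_2 and of M82, which overlapped with each other. The difference was 1.21 ± 0.25, 2.31-fold, at an adjusted p of 0.0117, and IL-1_1_3 rose by 0.97 against M82 (0.0392), beside -0.23 (0.667) in IL-4_2. The call between the lines was lost without array 1 (0.0745) or array 3 (0.0628) of IL-1_1_3, and the departure from M82 in 11 of 22 alternatives, with adjusted p up to 0.313. Of the same group, WRKYIId differed by 0.38 ± 0.15 (0.357) and WRKYIId-1 by 0.48 ± 0.34 (0.853).

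SODCP.2, the chloroplast form of copper/zinc superoxide dismutase, which removes superoxide, passed narrowly. It read 11.38, 11.17 and 11.45 in IL-1_1_3, and 12.01, 11.95, 11.70 and 11.88 in IL-4_2, with 11.58, 11.90 and 12.03 as lowest, median and highest value in M82. IL-1_1_3 lay below all arrays of IL-4_2 and M82, and the difference was -0.55 ± 0.14 (adjusted p 0.0479), with IL-1_1_3 at -0.52 against M82 (0.0427) and IL-4_2 at 0.03 (0.908). The call was lost with 11 of the 13 arrays left out in turn, with adjusted p up to 0.33, and the departure in 13 of 22 alternatives, up to 0.352. SODCC.1, a superoxide dismutase of the same family, differed by -0.07 ± 0.07 (0.94).

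Departures of IL-1_1_3 were also found in 2 genes known only by a LOC number, which were chosen after their values were seen. LOC543632 averaged 12.02 ± 0.14 in IL-1_1_3, 12.92 ± 0.04 in IL-4_2 and 12.78 ± 0.06 in M82 (SD, n = 3, 4 and 6). It differed between the lines by -0.90 ± 0.07 (adjusted p 1.84e-08), with IL-1_1_3 at -0.76 against M82 (1.61e-07) and IL-4_2 at 0.14 (0.287). LOC543740 read 4.55, 4.55 and 4.59 in IL-1_1_3, near the lower end of the array's scale, and 6.70, 6.94, 6.62 and 7.64 in IL-4_2, with 5.51, 7.89 and 8.71 as lowest, median and highest value in M82. It differed by -2.41 ± 0.60 (0.0467), with IL-1_1_3 at -3.13 against M82 (0.00598) and IL-4_2 at -0.72 (0.588). M82 itself was spread over more than 3 units, and the call of LOC543740 between the lines was lost with 10 of the 13 arrays left out in turn, with adjusted p up to 0.183.

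In 4 genes the lines differed while neither departed from M82, and the M82 mean lay between those of the lines. ADH2, an alcohol dehydrogenase, read 10.73, 10.76 and 10.50 in IL-1_1_3, and 9.29, 9.31, 9.16 and 9.52 in IL-4_2, with 9.43, 10.08 and 10.79 as lowest, median and highest value in M82. The lines did not overlap, but both overlapped with M82, which spread over more than 1 unit. The difference was 1.34 ± 0.24, 2.54-fold, at an adjusted p of 0.00209, with IL-1_1_3 at 0.60 against M82 (0.137) and IL-4_2 at -0.74 (0.0739). IL-4_2 did pass against M82 for ADH2 without M82 array 3 (0.0137) or array 4 (0.0391), and the call between the lines was lost only without array 2 of IL-1_1_3 and array 3 of IL-4_2 together (0.0544). CEVI57, dim in all 3 groups, averaged 5.75 ± 0.14 in IL-1_1_3, 5.18 ± 0.22 in IL-4_2 and 5.31 ± 0.06 in M82, a difference of 0.57 ± 0.13 (0.0209) that was lost without array 1 (0.132) or 2 (0.114) of IL-1_1_3 and without array 1 (0.0905) or 2 (0.0831) of IL-4_2. Against M82, IL-1_1_3 stood further off for CEVI57, at 0.44 (0.0602) with all its arrays above M82. IL-4_2 stood at -0.13 (0.634).

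DCL, which is needed for chloroplast development and leaf palisade shape in tomato, and app2 were lower in IL-1_1_3 by less than 0.4 on the log2 scale. DCL read 8.10, 7.92 and 8.04 in IL-1_1_3, and 8.38, 8.34, 8.37 and 8.38 in IL-4_2, with 8.10, 8.31 and 8.38 as lowest, median and highest value in M82. The difference was -0.35 ± 0.08 (adjusted p 0.0325), with IL-1_1_3 at -0.24 against M82 (0.0999) and IL-4_2 at 0.11 (0.554). The lines did not overlap, and both met the M82 range. It was lost with cyclic loess scaling (0.119), with quantile scaling (0.0582) and without each of the 7 arrays of the lines (up to 0.26). The gene app2 averaged 11.93 ± 0.08 in IL-1_1_3, 12.17 ± 0.01 in IL-4_2 and 12.01 ± 0.06 in M82, and its difference of -0.25 ± 0.06 (0.0277) was lost with 6 of the 13 arrays left out in turn (up to 0.257). Against M82, IL-4_2 stood further off for app2, at 0.17 (0.111) with all its arrays above M82. IL-1_1_3 stood at -0.08 (0.379).

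**Figure D2:**
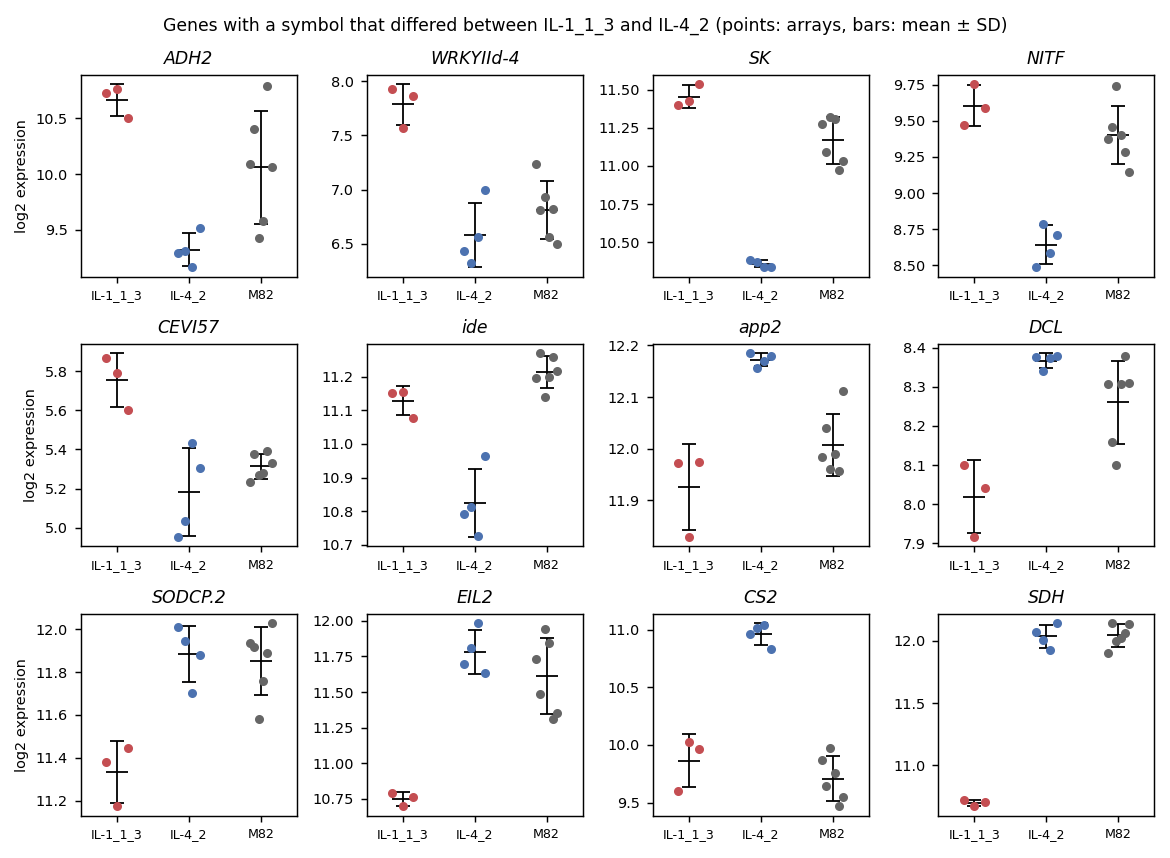
Log2 expression of the 12 genes with an informative symbol called between the lines, with 1 point per array and bars for mean ± SD, IL-1_1_3 at the left (n = 3), IL-4_2 in the middle (n = 4) and M82 at the right (n = 6). IL-1_1_3 stands away from M82 for SDH, EIL2, SODCP.2 and WRKYIId-4, and IL-4_2 for SK, NITF, ide and CS2. For SK the IL-1_1_3 points also lie above those of M82. The M82 mean lies between those of the lines for ADH2, CEVI57, DCL and app2.

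The largest differences were in probe sets without a symbol. Les.2423.1.A1_at read 12.20, 11.82 and 11.65 in IL-1_1_3, and 5.73, 5.49, 5.55 and 5.27 in IL-4_2, with 11.70, 11.99 and 12.26 as lowest, median and highest value in M82. It differed by 6.38 ± 0.26, 83.4-fold, at an adjusted p of 4.39e-12, and IL-4_2 fell by 6.51 against M82 (2.37e-13). IL-4_2 thus went to the lower end of the scale in a probe set that was bright in IL-1_1_3 and M82. Les.5783.1.S1_at had the smallest adjusted p of the probe sets tested, 8.01e-18, with 11.64, 11.51 and 11.50 in IL-1_1_3, and 7.20, 7.07, 7.13 and 6.91 in IL-4_2, against 11.41, 11.59 and 11.67 as lowest, median and highest value in M82. The spread within each group was small beside the difference of 4.47 ± 0.08. Falls of the same kind in IL-4_2 were found in Les.2716.1.A1_at (difference 4.42, adjusted p 3.94e-15), Les.1732.1.S1_at (4.13, 5.47e-10) and LesAffx.57950.1.S1_at (4.72, 5.47e-07), with IL-4_2 at -4.45, -3.63 and -4.27 against M82 in that order of probe sets.

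Of the 8 probe sets with the largest excess in IL-1_1_3, 7 came from a fall in IL-4_2, and Les.840.1.A1_at alone came from a rise in IL-1_1_3. Les.840.1.A1_at read 11.63, 9.53 and 10.63 in IL-1_1_3, and 4.64, 4.49, 4.41 and 4.88 in IL-4_2, with 4.35, 4.65 and 5.20 as lowest, median and highest value in M82. It differed by 5.99 ± 0.33, 63.6-fold, at an adjusted p of 2.57e-10, and IL-1_1_3 rose by 5.90 against M82 (2.52e-10). It was near the lower end of the scale in IL-4_2 and M82, and its arrays in IL-1_1_3 were themselves spread over more than 2 units.

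In the other direction, 5 of the 8 probe sets with the largest deficit in IL-1_1_3 came from a fall in that line. LesAffx.67882.1.S1_at read 5.52, 5.47 and 4.90 in IL-1_1_3, and 10.31, 10.33, 10.17 and 10.38 in IL-4_2, with 10.01, 10.36 and 10.51 as lowest, median and highest value in M82. It differed by -4.998 ± 0.20, 32.0-fold, at an adjusted p of 2.32e-12, and IL-1_1_3 fell by 5.02 against M82 (1.38e-12), while IL-4_2 lay within the M82 range. Falls in IL-1_1_3 were also found in Les.2320.1.A1_at (difference -4.46, adjusted p 1.38e-12), LesAffx.30145.1.S1_at (-2.51, 9.4e-05), Les.323.1.S1_at (-2.40, 2.75e-07) and LesAffx.55283.1.S1_at (-2.35, 4.5e-09).

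The other 3 came from a rise in IL-4_2. LesAffx.62131.1.S1_at read 8.17, 7.27 and 7.49 in IL-1_1_3, and 12.27, 12.23, 12.88 and 12.45 in IL-4_2, with 8.04, 9.41 and 9.77 as lowest, median and highest value in M82. The difference was -4.81 ± 0.57 (adjusted p 1.7e-05), with IL-1_1_3 at -1.51 (0.124) and IL-4_2 up by 3.30 (0.000285) against M82. LesAffx.51554.1.S1_at had a like pattern, with a difference of -4.35 ± 0.58 (8.26e-05), IL-1_1_3 at -1.46 (0.145) and IL-4_2 up by 2.89 (0.00181) against M82. In both, IL-1_1_3 passed against M82 as well once the 3 arrays that stand apart were left out (0.00711 for LesAffx.62131.1.S1_at and 0.00972 for LesAffx.51554.1.S1_at), so that the lines then departed to opposite sides. Les.3653.1.S1_at read 4.24, 4.27 and 4.46 in IL-1_1_3, and 6.45, 6.81, 8.16 and 7.51 in IL-4_2, with 4.05, 4.40 and 4.50 as lowest, median and highest value in M82. It differed by -2.91 ± 0.25 (2.75e-07), and IL-4_2 rose by 2.87 against M82 (3.79e-08). All 16 of these unnamed probe sets kept their call between the lines in every alternative that tested them.

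**Figure D3:**
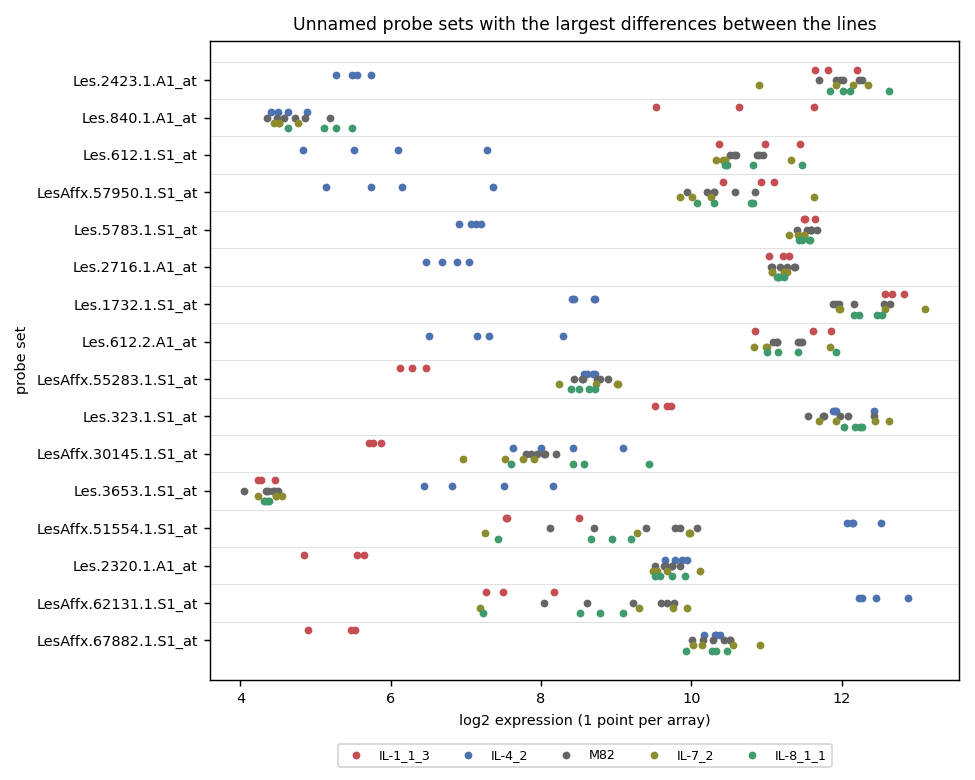
Log2 expression of the 16 unnamed probe sets with the largest differences between the lines, with 1 point per array, the 8 higher in IL-1_1_3 above and the 8 lower below. In each of them either the points of IL-4_2 or those of IL-1_1_3 lie apart from the M82 points, and the IL-7_2 and IL-8_1_1 points lie mostly with M82.

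Probe sets that share an ID stem are named for the same sequence cluster, and they can give a further reading where several are on the array. Of 39 stems with several probe sets of which at least 1 was called, all probe sets were called in 11, and in 34 all differences had the same sign. The sign was counted however small the difference. Some partners were dim, such as Les.5477.1.A1_at, at 4.87 in IL-1_1_3 and 4.73 in IL-4_2. These stems were chosen by a call, and the shares over all stems are not given here, so no result is drawn from these counts. Les.612.1.S1_at read 11.44, 10.36 and 10.98 in IL-1_1_3, and 4.83, 5.51, 7.29 and 6.10 in IL-4_2, with 10.51, 10.73 and 10.96 as lowest, median and highest value in M82. Array 3 of IL-4_2 was the least low of its group, at more than 2 units above array 1. The difference was 4.998 ± 0.42 (adjusted p 1.42e-07), and that of Les.612.2.A1_at was 4.12 ± 0.34 (1.04e-07), with IL-4_2 at -4.80 and -3.97 against M82. Les.2182 had 3 probe sets, with differences of -0.72, -0.84 and -0.93 and IL-4_2 above M82 in each. Les.2500 had 2, with differences of -1.70 and -1.98 and IL-1_1_3 below M82 in each, and so had Les.3222, with -1.66 in both. Les.1419 gave 0.82 and 0.87 with IL-1_1_3 above M82, and Les.388 gave 1.77, 1.93 and 1.56 with neither line departing. The sign held but the size did not in LesAffx.57950 and LesAffx.51554, whose probe sets beside those given above, LesAffx.57950.1.A1_at and LesAffx.51554.1.A1_at, differed by 1.93 (1.7e-05) and -1.79 (7.49e-07).

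Some stems did not read alike. In Les.3179, Les.3179.1.A1_at differed by 3.71 (adjusted p 1.38e-12) while the other 3 probe sets, Les.3179.1.A1_a_at, Les.3179.2.S1_at and Les.3179.3.S1_at, differed by 0.08, 0.08 and 0.11. In Les.4242, Les.4242.1.A1_at differed by 2.14 (2.29e-10) and Les.4242.2.S1_at by 0.09 (0.98). In both stems the called probe set fell in IL-4_2 against M82, so the reading of a cluster depended on the probe set. In Les.5885, Les.5885.1.A1_at departed in both lines. Les.5885.3.S1_at differed by 0.80 (0.00189) and departed in IL-1_1_3 alone, with IL-4_2 at -0.24 against M82 (0.43). Les.5885.2.S1_at differed by 0.83 (0.111) and departed in neither line, with IL-4_2 at -0.07 (0.89).

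Of 20 genes that earlier results of these data gave as called in a line against M82, 12 did not pass between the lines, so for these the lines are not shown to differ. XTH16, a xyloglucan endotransglucosylase that cuts and rejoins cell wall chains, read 9.47, 8.05 and 8.05 in IL-1_1_3, and 10.54, 10.62, 10.85 and 11.17 in IL-4_2, with 9.52, 11.70 and 12.73 as lowest, median and highest value in M82. The lines did not overlap, and the M82 arrays were spread over more than 3 units. The difference was -2.27 ± 0.65 (95% interval -3.64 to -0.91, adjusted p 0.112), with IL-1_1_3 at -2.90 against M82 (0.0222, lost in 5 of 22 alternatives, up to 0.22) and IL-4_2 at -0.62 (0.653). The other probe sets of XTH16 differed by -2.23 (0.108) and -2.24 (0.124), and XTH16 passed without M82 array 3 (0.0376), in the fit of the lines alone (0.0163), with array weights (0.0139) and without the 3 arrays that stand apart (0.0461).

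Others called in IL-1_1_3 against M82 were closer between the lines. DREB3, of the DREB transcription factors of drought and cold responses, differed by 0.11 between the lines (adjusted p 0.973), with IL-1_1_3 at 0.56 (0.0433) and IL-4_2 at 0.45 (0.0882) against M82. NPR1, the regulator of salicylic acid responses, differed by 0.13 (0.9), with 0.41 in IL-1_1_3 (0.0433) and 0.28 in IL-4_2 (0.168). BL3 differed by 0.26 (0.159), with 0.31 in IL-1_1_3 (0.038) and 0.05 in IL-4_2 (0.757). These departures of IL-1_1_3 were lost in 15 (DREB3), 14 (NPR1) and 13 (BL3) of 22 alternatives, with adjusted p up to 0.323, 0.392 and 0.257, and without each of the 3 IL-1_1_3 arrays in all 3 genes. The 3 plastid genes POR2, protochlorophyllide reductase of chlorophyll synthesis, CRTL-E-1, a lycopene cyclase of carotenoid synthesis, and CAB6A, a chlorophyll-binding protein, were all lower in the arrays of IL-1_1_3 on average without passing, at -0.59 (0.285), -0.34 (0.725) and -0.37 (0.504). Their departures from M82 in IL-1_1_3 were lost in 8 of 22 alternatives for POR2, 7 of 21 for CRTL-E-1 and 4 of 22 for CAB6A, in all 3 without IL-1_1_3 array 2 or M82 array 6.

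Genes called in IL-4_2 against M82 that did not pass between the lines were MT3, TLRP, LePIP1, IAA16 and ADC. MT3 averaged 8.96 ± 0.35 in IL-1_1_3, 10.45 ± 0.99 in IL-4_2 and 7.43 ± 1.17 in M82, and differed between the lines by -1.49 (95% interval -3.08 to 0.10, adjusted p 0.64), with IL-1_1_3 at 1.53 (0.233) and IL-4_2 at 3.02 (0.0142) against M82. TLRP, a cell wall protein rich in tyrosine and lysine, differed by 1.08 ± 0.37 (0.267), with IL-1_1_3 at -0.18 (0.774) and IL-4_2 at -1.26 (0.0477). IAA16, an auxin response repressor, differed by 0.43 (0.725), with IL-1_1_3 at -0.62 (0.143) and IL-4_2 at -1.05 (0.00846). The dimmer probe set of IAA16, Les.3703.1.A1_at, differed by 0.14 (0.982) and did not depart in IL-4_2 (-0.72, 0.14). The departure of TLRP in IL-4_2 was lost in 14 of 21 alternatives (up to 0.135), that of LePIP1 in 11 of 22 (up to 0.295) and that of MT3 in 4 of 22 (up to 0.233), in all 3 without IL-4_2 array 1 or 3. LePIP1 differed by 0.21 (0.98), and ADC, arginine decarboxylase of polyamine synthesis, by 0.14 (0.629). A difference that misses the threshold does not show that the lines were alike, and the plot of differences by gene gives the interval of each.

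**Figure D4:**
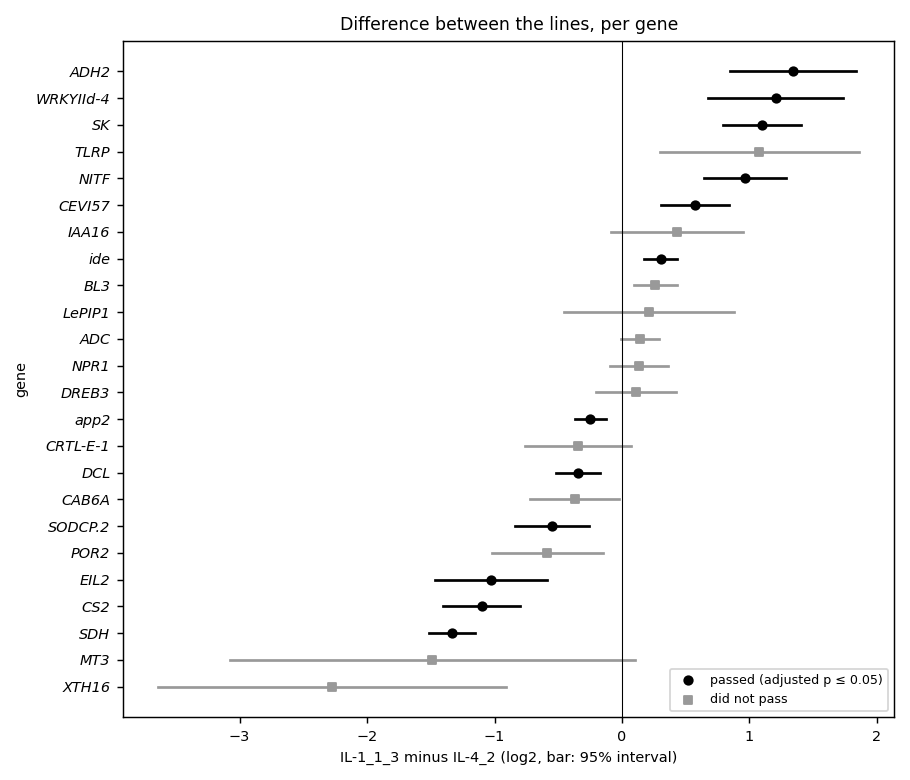
Difference between the lines, IL-1_1_3 minus IL-4_2, for the 12 called genes with an informative symbol (black circles) and the 12 genes given for their departure from M82 that did not pass between the lines (grey squares), with bars for the 95% interval of the fit. XTH16 and MT3 have the widest intervals, and SDH and CS2 lie clear of 0.

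Set out by function, 5 of 19 gene lists had a called member, and 6 of the 389 listed genes were called, a share near the background of 1.67% over all probe sets tested. The 13 genes of the phenylpropanoid and shikimate list held SK higher and CS2 lower in IL-1_1_3, with 11 that did not pass and a median difference of 0.05. WRKYIId-4 was the only call among 37 MADS box and other transcription factors (median 0.06), EIL2 among 45 ethylene genes (0.05), DCL among 28 genes of photosynthesis and pigments (-0.09) and SODCP.2 among 21 redox genes (-0.14). The median over all probe sets tested was -0.01. None of the 44 cell wall genes passed (median -0.03, from XTH16 at -2.27 to TLRP at 1.08), nor any of 27 defence genes (0.13), 35 signalling genes (0.00), 27 genes of sugar and starch (-0.02) or 17 of jasmonate and oxylipins (-0.05). The 6 pollen genes had a median of 0.03 and a largest difference of -0.36, in PRK3 (adjusted p 0.989). Among 7 gibberellin genes, 20ox-2, a gibberellin 20-oxidase, had the largest difference, -1.59, at an adjusted p of 0.105.

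**Figure D5:**
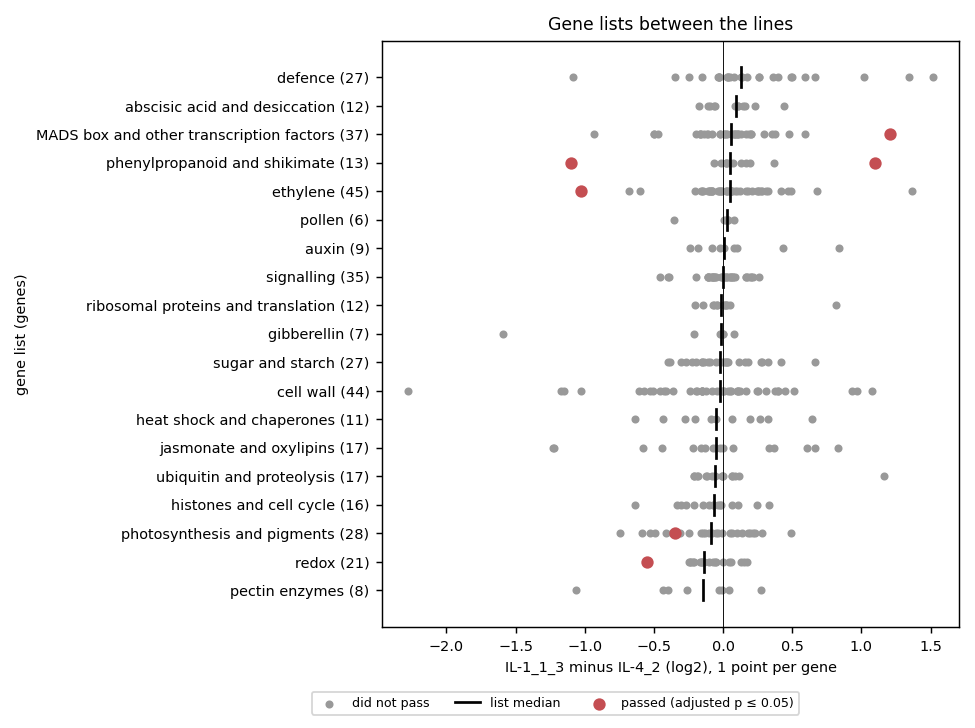
Difference between the lines for each gene of the 19 lists, with 1 point per gene, red where it passed at an adjusted p of 0.05, and a black bar for the median of the list. Medians lie between -0.15 (pectin enzymes) and 0.13 (defence), and the 6 red points belong to 5 lists.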

How the data were processed

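The authors deposited a log2 level for every probe set on each of 21 Affymetrix arrays, in 5 groups; that the scale is log2 follows from the spread of the numbers. The affy package is named per the submitters' processing notes. Its version and how it summarised and normalized probes are not given in these sources. RNA was taken up in Trizol, cleaned on a column and biotinylated, per the labels' protocols. Samples were grouped by title. The line characteristic for IL-1_1_3 reads IL-1_1. The labels do not say whether arrays of a group came from separate plants, so p-values measure only the spread between these samples, and the number of arrays limits the precision. No batch is given in the labels and none was tested.

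The matrix had 10209 probe sets. Leaving out 108 AFFX controls gave 10101 to test, with 63 reporter probe sets (RPTR) among them, of which 0 were called. The platform's annotation, which is old, gave a symbol to 909 (802 genes; 9.00%) and none to 9192, and 626 genes had an informative symbol. Limma 3.58.1 (R 4.3.3, data.table version 1.17.8; lmFit and eBayes) was fitted to all 21 arrays by group (16 residual degrees of freedom), and p-values were adjusted over the probe sets of each comparison (Benjamini-Hochberg, threshold 0.05). Errors are SD beside levels and SE beside differences. Both comparisons with M82 use the same M82 arrays. The fit was also run on simulated data with independent noise for each probe set and array. That run held no shift shared across an array, so it does not bear on such shifts here. Sequences and chromosomes were not used here.

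Named are the called genes with an informative symbol (up to 15 a direction), the 8 largest unnamed probe sets a direction, up to 3 called members of each list, and 20 genes called against M82 in earlier results. The brightest probe set stands for a gene. Members, lists and markers were chosen with earlier results of these data known, and lists were filled by hand from symbols. Of the markers listed, 0 of 5 for the tapetum and 4 of 8 for pollen were found. Same-numbered arrays of the lines deviated from their group means with correlations of 0.42, -0.29 and 0.23 for numbers 1, 2 and 3. With the M82 arrays they were -0.19, 0.03 and 0.18 for IL-1_1_3, and -0.21, 0.35 and 0.70 for IL-4_2. The signs differed, and the numbers were not taken to pair the samples in the main fit. Whether same-numbered arrays share an effect was not tested, and counts with the number as a block are given below. Alternatives were other scaling, other samples in the fit, a replicate block, array weights, filters, and arrays left out.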

Additional observations from a re-analysis of the deposited data

Results flagged for a closer look

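In 4 of 84 groups of named values, 1 array lay far from the others of its group by Dixon's criterion, which chance meets in about 1 of 20 groups. The 84 groups were those of IL-4_2 and M82, and the groups of IL-1_1_3 were not tested. DCL read 8.34 in IL-4_2 array 2, where the nearest other array read 8.37, a small gap in a group with almost no spread. Les.3653.1.S1_at read 4.05 in M82 array 5, with the nearest at 4.34. Les.323.1.S1_at read 12.43 in IL-4_2 array 3, with the nearest at 11.93. LOC543740 read 5.51 in M82 array 3, with the nearest at 7.68. The last 2 lie in arrays counted above among the 3 that stand apart.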

How the results depend on the processing

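Of 30 named probe sets called between the lines, 21 kept the call in each alternative that tested them, 23 for 19 of them and 22 for 2 dim ones, and of 12 that were not called, 9 stayed so. The count of 169 calls was 178 with cyclic loess and with quantile scaling, 223 in the lines alone, 145 without the dimmest probe sets and 133 to 183 with each of 13 arrays left out in turn, and 115 probe sets stayed called without each of them. With array weights it was 650 (273 higher and 377 lower in IL-1_1_3), and all 169 were among these. Counts against M82 depended more on the arrays. For IL-1_1_3 against M82 the 199 calls were 580 in the fit of the lines and M82, 2525 with array weights, 1917 without the 3 arrays that stand apart, 40 without array 2 of IL-1_1_3 and array 3 of IL-4_2 together (chosen after seeing the data), and 43 (without IL-1_1_3 array 2) to 587 (without M82 array 3) with 1 array left out. For IL-4_2 against M82 the 185 calls were 1863 with array weights, 116 without that pair of arrays, and 118 (without IL-4_2 array 3) to 237 with 1 array left out. With cyclic loess, IL-1_1_3 rose in 58 and fell in 115 (95 and 104 as deposited). Departures in IL-1_1_3 alone, 55, were 341 with array weights, 119 without the 3 arrays, 32 without that pair, and 32 to 69 with 1 array left out; those in IL-4_2 alone, 84, were 170 with array weights and 76 to 83. LePIP1 changed sign, to -0.070, without that pair. The cause of these shifts was not tested. With the replicate number as a block, calls were 135 between the lines (133 of the 169 among them), 32 for IL-1_1_3 and 92 for IL-4_2 against M82, and 26 departures fell to IL-1_1_3 alone; 2 of the 3 IL-1_1_3 arrays correlated best with their own number in IL-4_2, a hint from the data and not the design. Signal over background is not given, so differences of dim probe sets, such as LOC543740 and CEVI57, are of measured values only.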

Other observations

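Probe sets whose ID ends in _s_at or _x_at, which may bind several transcripts, were not among the calls between the lines (0 of 105 and 0 of 11), beside 1.71% of the 9781 probe sets ending in _at. In 41 of the 55 probe sets that departed in IL-1_1_3 alone, all its arrays lay outside every array of the other 4 groups, and for IL-4_2 this held in 81 of 84. These probe sets were chosen by calls on the same values, so such separation is partly built in. Its share over all probe sets tested is not given here, so no result is drawn from these counts.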
